A study of Mus musculus with 6 samples.

Results

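Genes that mark or drive 3 helper T cell fates were examined in splenic CD4+ CD25+ T cells: the Th2 cytokine genes Il4, Il5 and Il13, the Th17 cytokine gene Il17a, the Tfh cytokine gene Il21, and the transcription factor genes Rora, Ahr, Maf and Bcl6. The 9 genes were chosen by name, and each had 1 row (transcript cluster) of its own among the 30024 genes that had such a row. None lay on a row shared with another gene. Of the 9, 6 passed the filter on low values used for testing: no fewer than 3 of 6 arrays with a value that reached the array median. The genes tested numbered 16825.

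The arrays came from male C57BL/6 mice. The 3 Keap1_KO arrays (B, C and D, labelled Keap1 -/-) hold cells of mice with a floxed Keap1 gene and a VAVcre transgene, which acts in blood-forming cells at large, so loss of Keap1 was not limited to CD4+ CD25+ cells. The 3 WT arrays (A, D and F) are labelled Keap1 +/+, and it is not stated whether WT mice carried the Cre. Sample labels call the cells CD4+ while the title of the series has CD4-, and Cd4 read from 11.16 to 13.29 over the 6 arrays. No mouse was treated, cells were separated magnetically from spleen, and 40 ng of RNA was amplified. The labels give the age as 10 to 12 months in one field and 6 to 10 weeks in another. The triplicates are called independent, with no word on whether mice were pooled or shared, so the tests weigh genotypes against a spread among arrays that may be technical in part.

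Naive CD4 T cells take on effector fates under cytokine control. Th2 cells make IL-4, IL-5 and IL-13 against helminths and in allergy, Th17 cells make IL-17A at barrier surfaces, and Tfh cells use IL-21 and BCL6 to help B cells form germinal centres. Regulatory T cells (Treg cells), which carry CD4 and CD25, can share transcription factors with these fates, among them MAF, RORα, the aryl hydrocarbon receptor (AHR) and BCL6, while making little of the matching effector cytokines. KEAP1 keeps the transcription factor NRF2 at a low level by marking it for degradation.

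MAF is a member that textbooks tie directly to cytokine genes of this group: it drives Il4 in Th2 cells and Il21 in Tfh and Th17 cells. The 250 bases before the outermost RefSeq start of both genes (GRCm38.p6, minus strand, read 5′ to 3′) are shown for that reason, with the core of the MAF recognition element, TGCTGA on either strand, in capitals. The Il4 window is chr11:53618666-53618915 and the Il21 window chr3:37232637-37232886.
Il4: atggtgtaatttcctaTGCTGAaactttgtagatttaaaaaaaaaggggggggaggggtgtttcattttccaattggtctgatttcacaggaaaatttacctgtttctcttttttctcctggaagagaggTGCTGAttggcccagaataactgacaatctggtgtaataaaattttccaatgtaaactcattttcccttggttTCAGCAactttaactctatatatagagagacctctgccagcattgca
Il21: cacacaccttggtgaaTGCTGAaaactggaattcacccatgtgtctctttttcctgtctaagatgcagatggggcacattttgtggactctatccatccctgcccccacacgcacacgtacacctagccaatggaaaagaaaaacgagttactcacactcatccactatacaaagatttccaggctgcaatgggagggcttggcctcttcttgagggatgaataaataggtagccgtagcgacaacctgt
The core occurred 3 times in the Il4 window, beginning 234, 120 and 47 bases before the start, and once in the Il21 window, beginning 234 bases before it. The windows of Il13 and Il17a held it once each, and that of Il5 held none of these letters. Il4 has a second window in RefSeq, before a start inside the gene (chr11:53617339-53617588), in which the core was not found. Counting the outermost window of each gene, it was present for 4 of 5 cytokine genes. Of all 32851 promoter windows of the same length 16.1% held it, a share of windows and not of genes, so no excess was tested. Cores of AHR, ROR and NRF2 were searched for as well, and the MAF core matched most of these cytokine genes. The AHR core occurred in the Il21 window, the ROR core in the Il17a window and the NRF2 core only in the inner Il4 window. The available windows of Rora and Bcl6 held no MAF core, but none of them lies before the outermost start of its gene. These matches describe the letters only.

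The cytokine genes read near or below the middle of the arrays in both genotypes, none above percentile 62.8 of the rows of an array. Il5, Il17a and Il21 lay below the median of the array on all 6 arrays and did not pass the filter, whereas Il4 was at or above it on 4 arrays and Il13 on 5. Array medians over all 65528 rows ran from 5.16 to 5.43 on the deposited log2 scale. Rows differ in their probes, so a position on the array does not rank one gene against another.

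Il4, the cytokine that starts and feeds the Th2 fate, read 5.46 (A), 6.02 (D) and 5.20 (F) in WT, against 5.46 (B), 5.18 (C) and 5.40 (D) in Keap1_KO. WT D stood above the other arrays, and the groups overlapped. The difference, Keap1_KO minus WT, was -0.22 on the log2 scale (SE 0.25, 95% interval -0.81 to 0.38, exact permutation p = 0.4). It was 0.011 without WT D. That array also had the highest WT mean for mast cell and basophil markers (6.77 over 6 tested genes, with 5.99 to 6.61 on the other WT arrays), cells that can also make IL-4. On Keap1_KO B, C and D the same mean was 6.69, 6.92 and 6.97. WT D had the highest WT mean for the markers of every other cell type listed as well. Among these were the CD4 T cell and Treg genes (13.83) and the neutrophil genes (9.11). The part of mast cells and basophils in the Il4 values was not tested.

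Il13, which acts on epithelium and mucus production, read 5.35 (A), 5.41 (D) and 5.62 (F) in WT, against 5.61 (B), 5.02 (C) and 5.34 (D) in Keap1_KO. Only Keap1_KO C lay below its array median, and the groups overlapped. Its difference was -0.13 (SE 0.21, 95% interval -0.63 to 0.36, exact permutation p = 0.4), and 0.017 without Keap1_KO C. Il5, the eosinophil growth factor of the same locus, read 4.93, 4.998 and 5.05 in WT and 5.30, 5.08 and 4.72 in Keap1_KO B, C and D. The 3 Keap1_KO arrays enclosed the narrow WT range, and the difference was 0.04 (SE 0.17, exact permutation p = 0.8).

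Il17a, the defining Th17 cytokine, lay between percentiles 0.913 and 7.69 of the rows of its array. It read 3.75 (A), 3.46 (D) and 3.71 (F) in WT, against 3.68 (B), 3.98 (C) and 3.39 (D) in Keap1_KO, with both the highest and the lowest value in Keap1_KO. The difference was 0.05 (SE 0.18, exact permutation p = 1). Its chromosomal neighbour and partner in the IL-17A/F dimer, Il17f, was below the array median on all 6 arrays as well, at 3.91 ± 0.13 in WT and 3.84 ± 0.08 in Keap1_KO (SD, n = 3 each). Il21 read 4.81, 4.94 and 4.81 in WT and 4.87, 4.77 and 4.41 in Keap1_KO B, C and D, so that Keap1_KO D alone was set apart below. The difference was -0.17 (SE 0.15, exact permutation p = 0.4).

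**Figure D1:**
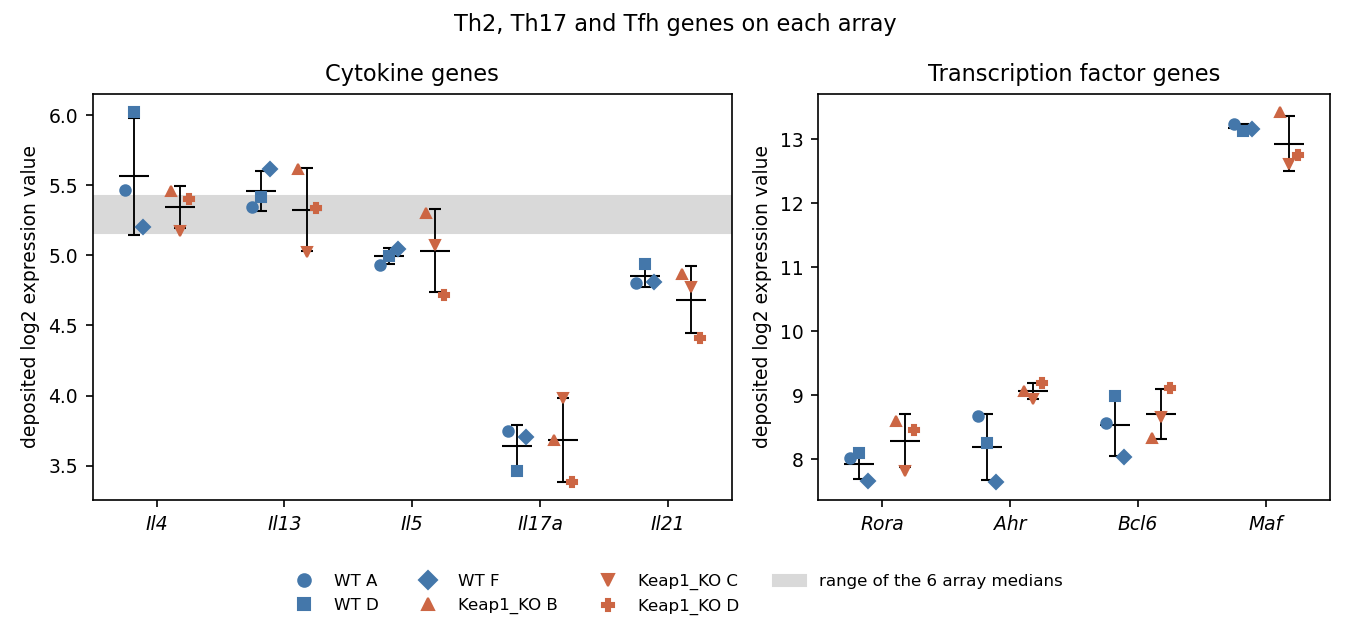
Deposited log2 expression values of the 5 cytokine genes and the 4 transcription factor genes on each of 6 arrays; horizontal bars are group means, error bars are SDs over 3 arrays, and the grey band in the left panel spans the 6 array medians (5.16 to 5.43). The Keap1_KO arrays lie above all WT arrays for Ahr, and the groups overlap for the other 8 genes.

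The transcription factor genes were well above the array median on every array, and Ahr was the only one of the 9 genes whose genotypes did not overlap. AHR is a ligand-activated receptor for aryl pollutants and for tryptophan and dietary metabolites, and it supports IL-17A and IL-22 production as well as gut Treg cells. Ahr read 8.68 (A), 8.26 (D) and 7.66 (F) in WT, against 9.07 (B), 8.94 (C) and 9.19 (D) in Keap1_KO. All Keap1_KO values lay in a narrow band above the highest WT value, and WT F was the lowest array. The means were 8.20 ± 0.51 and 9.07 ± 0.12 (SD, n = 3 each), a difference of 0.87 (SE 0.28, 95% interval 0.20 to 1.54), or 1.83-fold on the deposited scale.

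Ahr did not pass the test across genes. The limma adjusted p (Benjamini-Hochberg) was 0.476, the unadjusted p 0.0189 and the exact permutation p 0.1, the smallest that 3 arrays against 3 allow. Among the 16825 genes tested, 0% passed at an adjusted p under 0.05 and 10.3% at an unadjusted p under 0.05, where Ahr was the 1 member. Every Keap1_KO array lay above every WT array in 9.11% of genes and below in 4.96%, the background against which the 1 member apart, of 6 tested, is to be read. A difference as large as that of Ahr or larger was seen in 8.83% of genes tested. The difference was 0.60 without WT F and 1.11 without WT A.

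Markers of other cells differed between arrays, and their part in the Ahr values was not tested. Of 12 neutrophil genes 11 were tested, 10 with a higher mean in Keap1_KO and none at 0, and their mean was 7.95 to 9.11 in WT and 8.05 (B), 10.02 (C) and 12.00 (D) in Keap1_KO. WT F, the array with the lowest Ahr value, also had the lowest mean of the 6 arrays for B and plasma cell genes (6.96, with 7.60 to 9.03 on the others), for NK and CD8 T cell genes (6.57, with 7.61 to 9.37), for macrophage, monocyte and dendritic cell genes (6.15, with 6.54 to 7.64) and for mast cell and basophil genes (5.99, with 6.61 to 6.97). The 9 tested CD4 T cell and Treg genes averaged 13.32 to 13.83 in WT and 13.63 (B), 14.35 (C) and 14.43 (D) in Keap1_KO. WT F was the lowest of the 6 arrays for these genes too (13.32), and for gamma delta and innate-like T cell genes (6.34). For neutrophil genes WT A was lower (7.95, with 8.36 on WT F). The array median of WT F, 5.43, was the highest of the 6. In bulk cells a change in the share of a cell type and a change in RNA per cell cannot be told apart.

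Maf, the gene of the factor whose core is shown in the Il4 and Il21 windows, lay between percentiles 95.7 and 96.8 of the rows of its array. It read 13.24 (A), 13.12 (D) and 13.16 (F) in WT, against 13.42 (B), 12.62 (C) and 12.75 (D) in Keap1_KO. WT arrays agreed within 0.06 (SD), whereas Keap1_KO B was the highest of the 6 arrays and Keap1_KO C and D the lowest. The difference was -0.24 (SE 0.24, 95% interval -0.83 to 0.34, limma adjusted p = 0.654, exact permutation p = 0.4). It was -0.49 without Keap1_KO B (limma adjusted p = 0.144) and -0.09 without Keap1_KO C.

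Rora encodes RORα, which works with RORγt in Th17 cells and marks group 2 innate lymphoid cells and tissue Treg cells. Its values were 8.02 (A), 8.10 (D) and 7.66 (F) in WT, against 8.60 (B), 7.82 (C) and 8.45 (D) in Keap1_KO. Keap1_KO B and D lay above all WT arrays and Keap1_KO C among them. The difference was 0.36 (SE 0.26, 95% interval -0.26 to 0.99, limma adjusted p = 0.550, exact permutation p = 0.3), with 0.60 without Keap1_KO C and 0.21 without Keap1_KO B.

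Bcl6, the repressor that sets the Tfh fate and holds back the other helper fates, read 8.56 (A), 8.997 (D) and 8.04 (F) in WT, against 8.34 (B), 8.66 (C) and 9.12 (D) in Keap1_KO. The ranges of the genotypes overlapped over most of their length. The difference was 0.17 (SE 0.32, 95% interval -0.59 to 0.93, limma adjusted p = 0.810, exact permutation p = 0.7). Over the 6 tested members, 3 had a higher and 3 a lower mean in Keap1_KO, with a median difference of 0.02, which ran from -0.09 without Keap1_KO D to 0.21 without WT D. Over all genes tested the median was 0.06 and 56.5% had a higher mean.

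**Figure D2:**
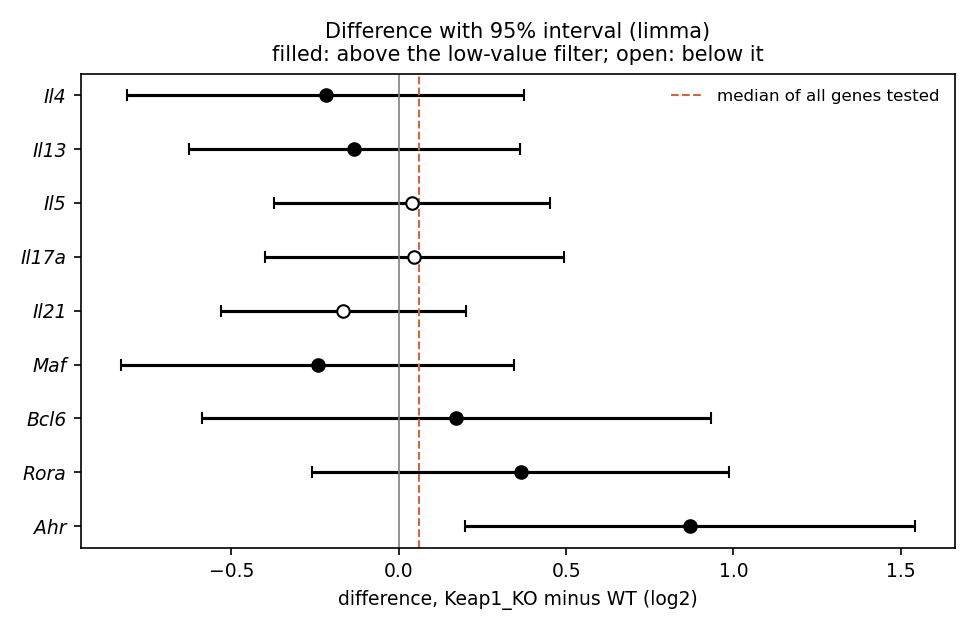
Difference between genotypes (Keap1_KO minus WT, log2) for each of the 9 genes, with 95% intervals from limma; filled points passed the filter on low values, open points come from the fit without it, and the dashed line is the median of all genes tested (0.06). The interval of Ahr (0.20 to 1.54) lies above 0, and those of the other 8 genes cross it. The intervals are not adjusted for the number of genes. The limma adjusted p of Ahr was 0.476, and 10.3% of genes tested had a limma unadjusted p under 0.05.

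The genotype labels were checked on the targeted gene. Keap1 read 5.30, 5.41 and 5.77 in WT and 4.87, 4.89 and 4.70 in Keap1_KO, without overlap (exact permutation p = 0.1), on a row that did not pass the filter. Whether the probes of this row lie in the floxed part is not known here, and probes outside it would not report the deletion. Correlations between arrays over the genes tested ran from 0.958 to 0.983 within and from 0.927 to 0.988 between genotypes. Il2ra, the CD25 gene, stood at 13.93 ± 0.22 (WT) and 13.88 ± 0.30 (Keap1_KO), and the row that Foxp3 shares with other transcripts 10.89 ± 0.22 and 11.87 ± 0.67 (SD, n = 3 each). On the Foxp3 row the groups overlapped, with Keap1_KO B (11.11) below WT F (11.15) (exact permutation p = 0.2). Without Keap1_KO B, 569 genes (3.38%) passed at a limma adjusted p under 0.05, and with array weights 1880 (11.2%). None of the 9 members was among either set.

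Of the receptors and signal carriers of these cytokines, Il4ra, Stat6, Il17ra and Il21r read above the array median on all 6 arrays. Il4ra, the receptor chain shared by IL-4 and IL-13, averaged 11.61 in WT and 11.68 in Keap1_KO, and Stat6, which acts downstream of it, 9.82 and 10.24. The row that Gata3, the master regulator of Th2 cells, shares with 9230102O04Rik read 8.87 ± 0.12 and 9.15 ± 0.16 (SD, n = 3 each), with overlapping arrays (exact permutation p = 0.2). Il17ra, the IL-17A receptor, averaged 10.23 and 10.56, and Il21r 9.24 and 9.89. Il17rc, the other chain of the IL-17A receptor, reached the array median on 2 arrays only and did not pass the filter. It read 5.39 ± 0.12 in WT and 5.09 ± 0.14 in Keap1_KO (SD, n = 3 each), lower on every Keap1_KO array. Its limma adjusted p was 0.563 in the fit without the filter. Among the genes tested, every Keap1_KO array lay below every WT array in 4.96%. Limma adjusted p-values for Il4ra, Stat6, Il17ra and Il21r lay between 0.484 and 0.928.

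Of 17 tested Th2 regulators, receptors and further cytokines, 10 had a higher and 7 a lower mean in Keap1_KO, none passed at the adjusted threshold, and the median difference was 0.07. Ccr4, a chemokine receptor of Th2 and Treg cells, gave the largest difference of the list. It read 9.69 (A), 10.33 (D) and 8.79 (F) in WT, against 11.04 (B), 12.44 (C) and 12.63 (D) in Keap1_KO, without overlap (difference 2.43, SE 0.55, limma adjusted p = 0.476). Ccr8, found on the same cells, differed by 2.20, but Keap1_KO B (9.14) lay below WT D (9.55). Ptgdr2, the prostaglandin D2 receptor of Th2 cells, differed by -0.56, and Il13ra1 by 0.44, with limma adjusted p of 0.493 and 0.498. Ccr4 and Ccr8 passed without Keap1_KO B and with array weights, where 3.38% and 11.2% of all genes tested passed. The median of the list was -0.03 without WT A, with 8 of 17 genes higher, 0.18 without WT D and 0.17 without Keap1_KO B. Il10, a MAF target in many T cells, averaged 7.04 and 7.06, and Il9 5.44 and 5.41.

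Il4, Il13, Rad50 and Il5 follow one another on the mouse genome (RefSeq, GRCm38.p6), and a control region of the Th2 cytokines lies inside Rad50. Of 9 tested genes of this neighbourhood other than the cytokines, 5 had a higher and 4 a lower mean, with a median difference of 0.07 and none past the adjusted threshold. Irf1 and Uqcrq passed with array weights, as did 11.2% of all genes tested. Rad50 itself, a DNA repair gene, averaged 10.97 and 10.95. Irf1, an interferon-induced transcription factor gene, differed by 0.78, Uqcrq, a respiratory chain subunit gene, by 0.98, Aff4 by -0.37 and Septin8 by 0.19, and of these 4 only Septin8 had non-overlapping arrays. A second Irf1 row, of lower mean, differed by 0.30 with overlap. The median of this list was -0.01 without WT D, 0.20 without WT A, 0.12 without WT F and 0.10 without Keap1_KO C.

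Of 21 tested Th17 genes other than the members, 13 had a higher and 8 a lower mean, with a median difference of 0.12 and none past the adjusted threshold. Il6st, which encodes gp130, the shared signal chain of the IL-6 family that starts the Th17 fate, read 13.21 (A), 12.92 (D) and 12.84 (F) in WT, against 12.05 (B), 12.19 (C) and 11.97 (D) in Keap1_KO. Its arrays did not overlap, and the difference was -0.92 (SE 0.17, limma adjusted p = 0.476). Ccr6, the chemokine receptor of Th17 cells, read 9.20, 9.18 and 8.54 in WT and 9.87, 10.72 and 9.88 in Keap1_KO B, C and D, again without overlap (difference 1.19, SE 0.31, limma adjusted p = 0.476). Etv6, an ETS family repressor, differed by 0.61 without overlap. Batf, an AP-1 factor that opens Th17 loci, differed by 2.08, with Keap1_KO B (10.43) below WT D (10.81). With array weights these 4 genes passed, as did Ikzf3 (difference -0.94, with overlap), and without Keap1_KO B only Batf and Ikzf3 of the list did. Over all genes tested, 11.2% passed with array weights and 3.38% without Keap1_KO B. The median of the list was 0.28 without WT D, 0.20 without Keap1_KO C and 0.07 without Keap1_KO D.

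Of 25 tested Tfh genes other than the members, 17 had a higher and 8 a lower mean, with a median difference of 0.44. None passed at the adjusted threshold. The list mixes roles, so its counts and median give no direction for the Tfh fate. The 17 include Pdcd1 (1.74) and Cxcr5 (0.72), but also Prdm1 (0.19), whose product opposes BCL6. The 8 include Icos (-0.09), Btla (-0.35) and Cd40lg (-0.65). Slamf6, a SLAM family receptor, read 12.07, 12.09 and 11.97 in WT and 12.42, 12.53 and 12.86 in Keap1_KO, without overlap (difference 0.56, SE 0.18, limma adjusted p = 0.476). Selplg, the selectin ligand PSGL-1 that is low on Tfh cells, differed by 1.12 without overlap. Tnfrsf4, the costimulatory receptor OX40, differed by 2.01, with Keap1_KO B (12.77) below WT D (13.06). Lef1, a factor of naive and early Tfh cells, differed by -0.41 without overlap. Selplg and Tnfrsf4 passed without Keap1_KO B, and Selplg, Slamf6 and Tnfrsf4 with array weights. The shares of all genes tested that passed there were 3.38% and 11.2%. The median of the list was 0.63 without Keap1_KO B, 0.26 without Keap1_KO D and 0.55 with arrays centred on their medians.

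**Figure D3:**
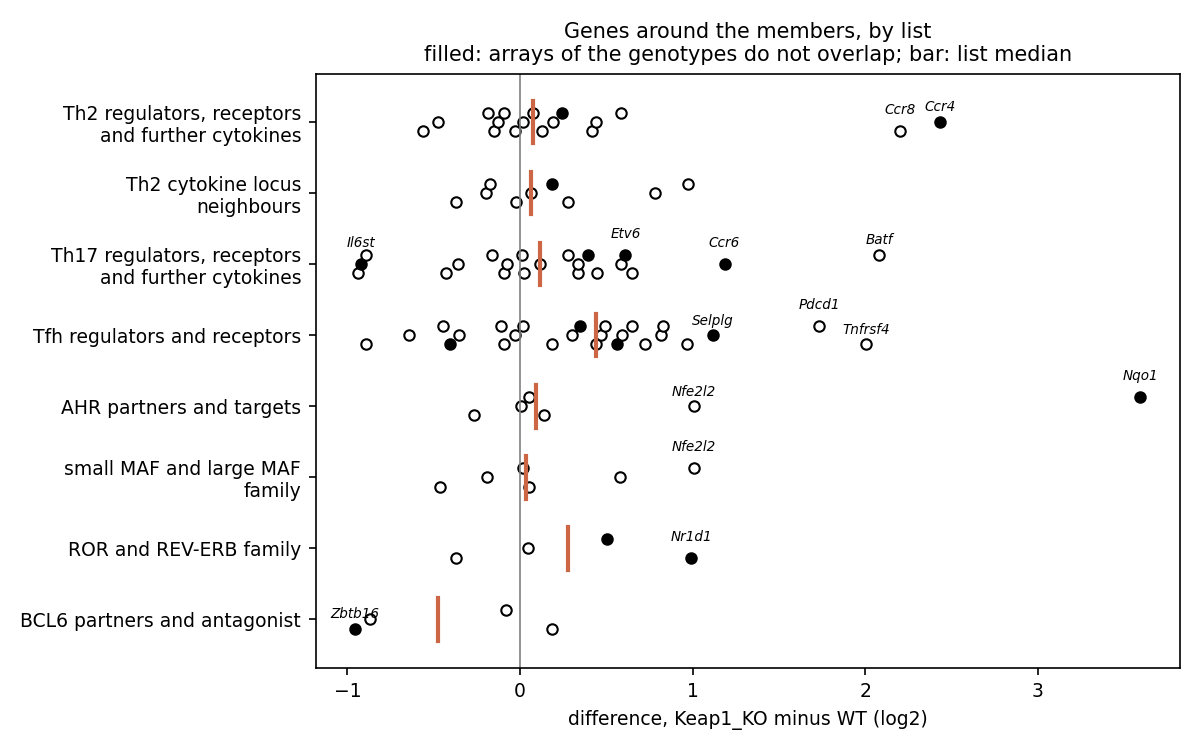
Difference (Keap1_KO minus WT, log2) of each tested gene in the 8 lists around the members; each point is a gene, filled where the arrays of the genotypes do not overlap, and each bar is the list median. Nqo1 (3.60), Ccr4 (2.43), Ccr8 (2.20) and Batf (2.08) lie far from their list medians, which run from -0.47 to 0.44.

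None of 6 tested partners and targets of AHR passed at the adjusted threshold, and 5 had a higher mean in Keap1_KO (median difference 0.10). Arnt, its DNA-binding partner, averaged 8.54 in WT and 8.59 in Keap1_KO, and the chaperone gene Hsp90aa1 14.30 and 14.44. Of its textbook target genes, Cyp1a1, Cyp1b1 and the repressor gene Ahrr lay below the filter. Ahrr had lower values on all Keap1_KO arrays (4.24 ± 0.04 in WT and 4.13 ± 0.02 in Keap1_KO, SD, n = 3 each). The difference was -0.11 (limma adjusted p = 0.678 in the fit without the filter), and all 6 values were below the array median. Over the genes tested, 4.96% had every Keap1_KO array below every WT array. Tiparp, which brakes AHR, differed by -0.27 (limma adjusted p = 0.680). Nqo1, a quinone reductase gene driven by both AHR and NRF2, read 4.68, 4.69 and 5.03 in WT and 8.50, 7.55 and 9.14 in Keap1_KO B, C and D (difference 3.60, SE 0.40, limma adjusted p = 0.310). Each WT value of Nqo1 was below its array median, so the size of this difference is not exact. Nqo1 met the filter only through its Keap1_KO arrays. Its test and its place among the 6 tested genes therefore depend on that group. It passed without Keap1_KO B and with array weights, where 3.38% and 11.2% of all genes tested passed. Nfe2l2, the NRF2 gene, differed by 1.01 with overlap. The genes with a higher mean numbered 3 of 6 without WT F, without Keap1_KO D or after repeated quantile normalization, and the list median ran from -0.02 without WT F, over 0.01 without Keap1_KO D and 0.22 without Keap1_KO B, to 0.39 without WT D.

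Of 6 tested genes of the MAF, BACH and NRF2 group, 4 had a higher and 2 a lower mean (median difference 0.04, with -0.04 without Keap1_KO B, -0.00079 without WT F and 0.09 without Keap1_KO C), and none passed at the adjusted threshold. Among the small MAF proteins, which pair with NRF2 and lack the activation domain of MAF, Mafg averaged 6.73 and 6.79, Mafk 6.70 and 6.72, and Maff 6.31 and 6.89 (limma adjusted p = 0.563). Bach2, a repressor that supports Treg cells, differed by -0.46 and Bach1 by -0.19, both with overlap. In the ROR and REV-ERB family 3 of 4 tested genes had a higher mean (median difference 0.28), none past the adjusted threshold. The split was 2 and 2 without WT F (median 0.18), without Keap1_KO D (0.19) and with array weights (0.16). Nr1d1 passed with array weights, as did 11.2% of all genes tested. Nr1d1, which encodes the clock repressor REV-ERBα that competes with RORα for binding sites, read 6.93, 7.22 and 6.75 in WT and 7.78, 8.20 and 7.90 in Keap1_KO. Its arrays did not overlap (difference 0.99, SE 0.20, limma adjusted p = 0.476). Arntl, a clock gene activated by RORα and repressed by REV-ERBα, differed by 0.51 without overlap, and Nr1d2 by -0.37 and Npas2 by 0.05 with overlap.

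Prdm1, the gene of BLIMP-1 that opposes BCL6, averaged 7.31 in WT and 7.50 in Keap1_KO (limma adjusted p = 0.727). Zbtb16, which encodes PLZF, a BCL6-related factor of innate-like T cells, read 6.17, 7.01 and 5.83 in WT and 5.82, 5.19 and 5.13 in Keap1_KO B, C and D. The groups were apart by the small gap between WT F and Keap1_KO B (difference -0.96, SE 0.36, limma adjusted p = 0.476). Hdac4, a corepressor gene, differed by -0.87 on the row used and by -0.29 on a second row, and Zbtb7b, the gene of the CD4 lineage factor ThPOK, by -0.08. Of the 4 tested genes of this list, 1 had a higher and 3 a lower mean (median difference -0.47), and none passed at the adjusted threshold. With WT A left out the median difference came to -0.27, with Keap1_KO C left out to -0.22, and the split was 2 and 2 without Keap1_KO D.

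The tested protein-coding genes whose values followed a transcription factor gene most closely over the 6 arrays were found by Pearson r, as a description. For Ahr they were Nr2c2ap (0.994), Washc5 (0.991) and Mark2 (0.990). For Rora they were Myo1c (0.989), Maml1 (0.986) and Crtc2 (0.984), and for Maf Kansl1l (0.992), Vps13b (0.988) and Hip1 (0.987). For Bcl6 they were Tmem185b (0.997), D030056L22Rik (0.995) and Ing5 (0.994). With only 6 arrays, which fall into 2 genotypes and differ in marker levels, an r above 0.9 was reached by 148 genes for Ahr, 68 for Rora, 288 for Maf and 581 for Bcl6, of 10993 compared.

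**Figure D4:**
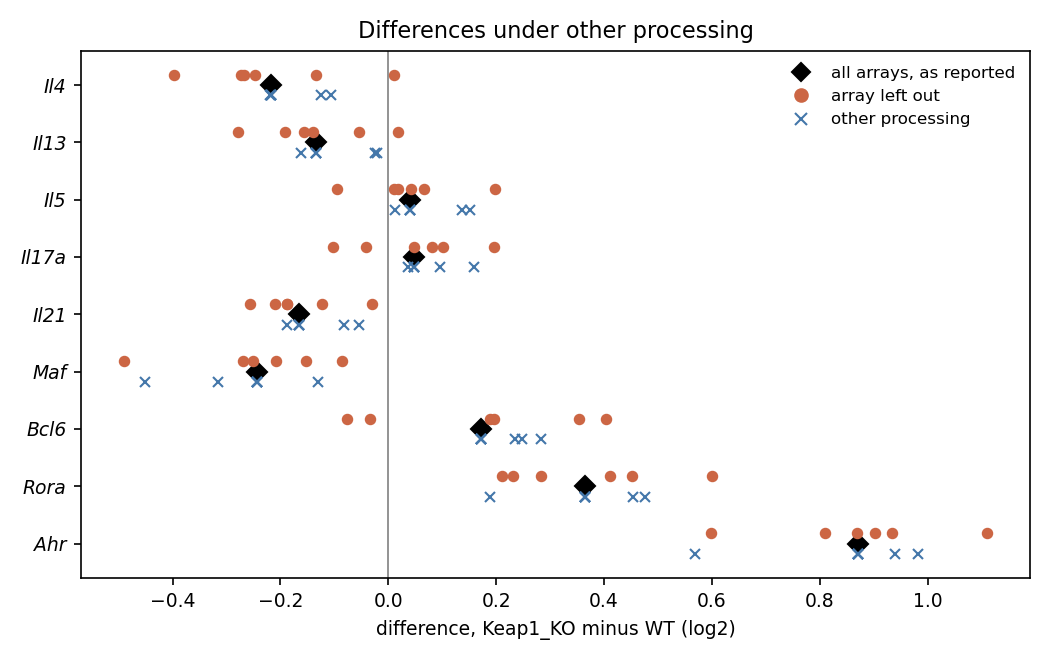
Difference (Keap1_KO minus WT, log2) of each of the 9 genes with all arrays as reported (diamonds), with 1 array left out (circles) and under other processing (crosses). Ahr stays between 0.57 and 1.11 and Rora above 0, Maf and Il21 stay below 0, and Il4, Il13, Il5, Il17a and Bcl6 cross 0.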

How the data were processed

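Expression was measured on 6 arrays. For each transcript cluster the authors deposited a log2 value per array. The submitters' processing notes name RMA, Affymetrix Expression Console and Transcriptome Analysis Console, without versions. No source used here gives a genome build. Values above 16 on the log2 scale, beyond a 16-bit scanner, occurred in 1268 rows, so an unstated rescaling is part of the scale. The design text names a Mouse Gene array, but the row identifiers match the annotation of another Affymetrix mouse array, through which rows were named, with symbols updated by Entrez identifier in 22586 rows.

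Groups came from sample titles. Where a gene had several rows, the row with the highest mean stood for it. Genotypes were compared by limma 3.58.1 (lmFit, eBayes) in R 4.3.3 with two-sided p-values, adjusted by Benjamini-Hochberg across 16825 genes, at a threshold of 0.05. Members, Keap1, Ahrr and Il17rc below the filter have their limma values from the fit without it (30024 genes). For single values an exact permutation test, two-sided, was used. The fit was run on simulated data with independent noise, smaller than the spread among WT arrays, and with changes larger than those of the members. That run does not show how well the fit works on these data. Precision is limited by having 3 arrays per genotype.

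The members and lists were chosen with earlier results of these data known. Of each list around the members the text names up to 4 tested genes with the smallest unadjusted p, since none passed the adjusted threshold. Others were chosen for their role, among them receptors, signal carriers, further cytokines, neighbours, partners and AHR targets. Ikzf3 is named because it passed under alternatives. Lists of cell type markers are given mainly as means per array, with few of their genes named. The list gene Ccni was left out because RefSeq places it elsewhere. Ahr and Maf promoters were not used here. Alternatives were other filters, scales, array weights, variance priors, row choices and each array left out.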

Additional observations from a re-analysis of the deposited data

How the results depend on the processing

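Ahr and Rora kept a higher and Maf a lower mean in Keap1_KO under all 13 alternatives, and Il21 a lower mean under all 12 that gave it a value, with no member past the adjusted threshold in any. The limma adjusted p ranged from 0.144 to 0.900 for Ahr and from 0.115 to 0.944 for Maf, and the Ahr difference was 0.57 with array weights. With 1 array left out, the difference ranged from -0.40 to 0.011 for Il4 (highest without WT D), from -0.28 to 0.017 for Il13 (highest without Keap1_KO C), from -0.095 to 0.20 for Il5, from -0.10 to 0.20 for Il17a, and from -0.077 to 0.40 for Bcl6 (lowest without WT F), so these turned direction. The genes called over all tested were 1880 with array weights, 1 with an intensity trend and robust variance, 0 to 569 with 1 array left out (569 without Keap1_KO B), and 0 otherwise. The median over the tested members was 0.02 with all arrays, from -0.087 to 0.21 with 1 array left out, below 0 in 4 of these 6 cases, and 0.27 with the stricter filter, which removed Il4 and Il13. Centring arrays moved the median of all genes by 0.11. No paired analysis was possible because only the letter D occurs in both genotypes. For Il5, Il17a and Il21 the alternatives other than the absence of the filter, and the list counts with arrays left out or under other scales and weights, were added after seeing the data.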
